A study of Mus musculus with 22 samples.

Results

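The genes described here are 10 genes of fatty acid synthesis and elongation, compared between primary mouse embryonic fibroblasts (MEFs) of wild-type embryos (WT, Lsh+/+) and of embryos lacking Lsh (KO, Lsh-/-). They were taken by gene symbol from the deposited expression values and make up 10 of 16271 genes, or 13 of 21136 transcript rows. They were Tecr, Elovl1, Elovl5, Elovl6, Hsd17b12, Ptplb, Scd1, Scd2, Fasn and Acaca. They were selected on the KO against WT difference of Tecr in these same libraries, joined by its pathway. The KO against WT values of the 10 genes are therefore a description, without a test.

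Lsh, the protein of Hells, is a chromatin remodeller of the SNF2 family that is needed for normal DNA methylation. All cells were of the C57BL/6 strain, came from the embryo body at stage E13.5 (embryonic day), were at passage 3 to 4 and were grown in medium with serum. No other allele or agent is named for any group, and the labels say neither which part of Hells was deleted nor whether embryos were pooled. Of the 22 samples in the labels, 4 RNA libraries were used, 2 for each genotype, called WT1, WT2, KO1 and KO2. The other 18 samples were not analysed here. The labels call the libraries biological replicas and do not say what a number stands for, be it a litter, a day or a run, so a p-value measures the spread between these libraries only.

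Fatty acid synthesis starts when acetyl-CoA carboxylase makes malonyl-CoA, from which fatty acid synthase builds palmitate. Longer chains are made in the endoplasmic reticulum by a cycle of condensation, reduction, dehydration and a last reduction. The elongases of the Elovl family condense, Hsd17b12 carries the 3-ketoacyl-CoA reductase, Ptplb (now named Hacd2) is a 3-hydroxyacyl-CoA dehydratase, and Tecr is the trans-2-enoyl-CoA reductase of the last step. Stearoyl-CoA desaturases such as Scd1 and Scd2 put the first double bond into the chain. Many of these genes are known targets of the sterol regulatory element binding proteins (SREBPs), and fibroblasts use the products for membrane lipids and sphingolipids.

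Promoter sequences are shown for Tecr, Elovl1 and Fasn, the genes that were lower in KO cells by a similar amount within both replicate numbers. They are the 250 bases before the start site from RefSeq (GRCm38.p6), 5′ to 3′ in the direction of transcription, and the expression values use another build (mm9). Capitals mark CCAAT (the NF-Y box) and GGGCGG (the GC box), on either strand.
Tecr, chr8:83594492-83594741, minus strand: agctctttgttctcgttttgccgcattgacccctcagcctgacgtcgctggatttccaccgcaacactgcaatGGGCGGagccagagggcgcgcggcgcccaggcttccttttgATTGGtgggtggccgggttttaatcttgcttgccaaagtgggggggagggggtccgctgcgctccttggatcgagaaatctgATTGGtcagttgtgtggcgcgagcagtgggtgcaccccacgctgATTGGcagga
Elovl1, chr4:118427843-118428092, plus strand: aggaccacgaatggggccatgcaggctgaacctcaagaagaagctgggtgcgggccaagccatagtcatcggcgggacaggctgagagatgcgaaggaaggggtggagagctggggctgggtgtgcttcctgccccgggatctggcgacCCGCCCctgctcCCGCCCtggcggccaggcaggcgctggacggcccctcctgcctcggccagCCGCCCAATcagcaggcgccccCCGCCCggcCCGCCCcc
Fasn, chr11:120824548-120824797, minus strand: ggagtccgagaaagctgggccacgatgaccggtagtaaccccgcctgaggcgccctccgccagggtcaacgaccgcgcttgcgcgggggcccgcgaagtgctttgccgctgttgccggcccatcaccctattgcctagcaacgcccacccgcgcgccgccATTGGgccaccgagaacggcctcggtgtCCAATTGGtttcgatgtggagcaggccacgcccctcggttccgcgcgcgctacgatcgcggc
The Tecr sequence has CCAAT on the opposite strand, with first bases at -136, -54 and -10 from the start site, and a GC box at -177. Fasn has CCAAT matches at -90, -62 and -59, of which the last 2 overlap. The Elovl1 sequence has 5 GC boxes and a single CCAAT match at -35, which overlaps the GC box at -39. Elovl1 has another window, from a start site 1608 bases further along the gene, which is not printed.

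Motifs were searched on both strands from 250 bases before to 50 after the start site, in 32851 RefSeq windows of which 9 belonged to 8 of the 10 genes. Scd1 and Scd2 were not among them. CCAAT was in the windows of 5 of the 8 genes and in 37.4% of all windows. Tecr and Fasn were the 2 genes with 3 or more CCAAT matches, which 3.37% of all windows had. This cut was not planned, and overlapping matches, as in Fasn, were counted separately. GGGCGG was found in 4 of the 8 genes and in 35.7% of all windows. CACGTG (the E-box) was present for Elovl5 and in 7.15% of all windows. The sterol regulatory element in its full form was in 0 of the 8 genes and 0.0913% of all windows, and the looser TCACNCCAC was in 0 of 8 and 1.24%. These are matches of letters in a window and say nothing of binding. CpG dinucleotides numbered 39 in the Fasn window, 26 for Ptplb, 23 for Hsd17b12, 22 for Tecr and 20 for Elovl5. They numbered 20 and 6 in the Elovl1 windows, 14 for Elovl6 and 1 for Acaca. The median over all windows was 7. DNA methylation was not measured in the files used here.

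Expression was measured as RPKM (reads mapped to a transcript, scaled by its length in kilobases and by the library's mapped reads). This puts transcripts of different length on the same scale. A comparison of levels between genes has a limit here, since Gapdh was listed at only 0 to 0.298 RPKM. The 10 genes covered a wide range of levels. Scd2 was the highest, at 104.9 to 277.8 RPKM over the 4 libraries, and no other gene of the group reached its lowest value. Hsd17b12 followed at 42.9 to 77.1 RPKM. Elovl1 (29.1 to 40.2), Scd1 (23.1 to 40.0) and Elovl5 (20.6 to 43.6) overlapped each other, and Elovl5 also overlapped Hsd17b12. Fasn (11.2 to 17.9), Tecr (6.59 to 18.6) and Elovl6 (4.39 to 11.4) formed the next overlapping set. Acaca (1.99 to 3.56) and Ptplb (1.36 to 3.02) were the lowest and overlapped.

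**Figure D1:**
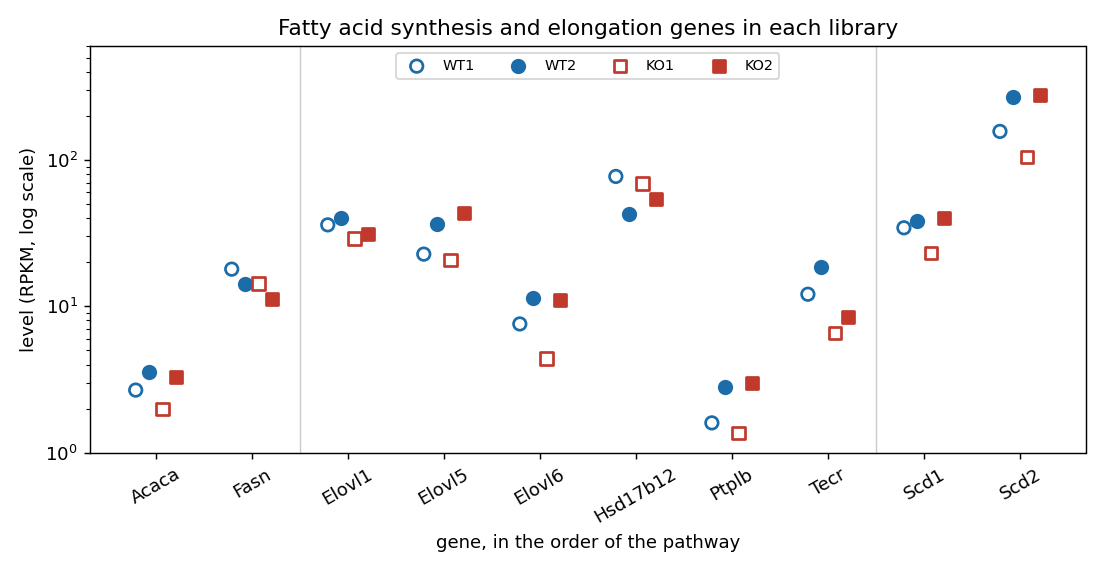
RPKM (log axis) of the 10 genes (WT1, WT2, KO1, KO2), each point being 1 library. Scd2 lies above all the others, from 104.9 to 277.8, and in Tecr both KO points (6.59 and 8.49) lie below both WT points (12.1 and 18.6).

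The libraries had 122.4 to 176.4 M (mega) mapped reads, worked out from the steps of 1 read in olfactory receptor loci. This put at least 166 reads per kilobase on each of the 10 genes in each library. Hells itself, the targeted gene, was at 0.865, 1.06, 0.430 and 0.550 RPKM (WT1, WT2, KO1, KO2), a KO/WT ratio of 0.497 and 0.521. Fibroblast markers were present throughout (12 of 12 above 0 in every library, summed 2883 to 3135 RPKM), led by Vim, Col1a2 and Col1a1. Within that list, Lum was at 0.718 (WT1), 108 (WT2), 1.27 (KO1) and 105 (KO2) RPKM. Summed adipocyte markers (11 genes, led by Lpl, Cebpa and Pparg) were 5.82 in WT1 and 5.61 in KO1 against 24.9 in WT2 and 28.3 in KO2. Of these genes, 4, 5, 5 and 0 were listed at 0 (WT1, WT2, KO1, KO2). Lpl was at 2.10, 13.7, 3.48 and 19.5 RPKM in that order, Pparg at 1.45, 0.906, 0.710 and 0.793, and Adipoq at 0, 0, 0 and 0.179. Blood and macrophage markers (12 genes, led by Lyz2, C1qa and C1qb) summed to 60.5, 176.5, 8.35 and 86.2 RPKM (WT1, WT2, KO1, KO2). Epithelial markers (8 genes, led by Krt19, Krt18 and Cldn4) summed to 18.6, 18.1, 7.93 and 5.75 in the same order. Within that list, Epcam was at most 0.151 RPKM, Cldn7 at most 0.0562 and Cdh1 at most 0.0426. Krt18 was at 1.81, 2.58, 1.97 and 0.939 RPKM (WT1, WT2, KO1, KO2). The 3 hepatocyte markers in the files, Trf, Afp and Apoa1, summed to at most 0.146 RPKM.

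Tecr was lower in KO than in WT cells within both replicate numbers, by more than any other gene of the group. Its level was 12.1 RPKM in WT1, 18.6 in WT2, 6.59 in KO1 and 8.49 in KO2, which is 15.3 ± 4.61 (SD, n = 2) in WT and 7.54 ± 1.34 (SD, n = 2) in KO. The groups did not overlap: both KO libraries lay below the lower WT library. The KO/WT ratio was 0.546 for replicate 1 and 0.456 for replicate 2. On the log2(RPKM + 0.5) scale, which slightly understates changes at low levels, the difference was -0.96 (SE 0.32, n = 2 and 2), and -0.83 and -1.09 within the replicate numbers. Of the 11149 genes tested, 0.457% had a lower difference.

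When the replicate number was added as a term to the limma fit, Tecr was 1 of the 33 genes called lower in KO (0.296% of the genes tested), beside 42 called higher (0.377%), none of them in the group. That call belongs to the contrast by which the group was chosen and is given only to say how Tecr came to be selected. It was not made with genotype alone, and with the replicate number it was lost at a pseudocount of 0.1, with the highest row of each gene and without the filter. Tecr has 2 transcript rows over the same span (chromosome 8, 86095597 to 86118390, minus strand, mm9). The higher row was 7.06 times the lower in every library. A ratio constant to this degree (within 1%) was found in 28.5% of the 1888 genes with 2 rows above 0, so the rows carry no separate information on isoforms.

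The tested genes on either side of Tecr are Scoc and Ndufb7 on one side and Dnajb1 and Gipc1 on the other. None of these 4 passed the test in either fit. Ndufb7, a subunit of respiratory complex I, was at 7.51, 10.5, 8.69 and 7.65 RPKM (WT1, WT2, KO1, KO2), both KO libraries lying within the WT range. Dnajb1, a heat shock co-chaperone, was at 29.6, 24.8, 33.1 and 23.2 RPKM in that order. Scoc was at 16.58, 11.98, 10.12 and 9.902 RPKM, and Gipc1 at 28.18, 32.24, 25.99 and 25.95, in the same order. For both of these genes the KO libraries lay below the WT libraries without overlap, as for Tecr and 7.32% of all genes. For Ndufb7 and Dnajb1 the genotypes overlapped. Scoc had a difference of -0.47 and Gipc1 of -0.21 on the log2 scale. With the replicate number as a term in limma, the adjusted p ranged from 0.392 for Scoc to 0.989 for Dnajb1.

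The genes whose pattern over the 4 libraries was most like that of Tecr were Eng, Eps8l2, Tmem141, Ccnf and Rps4y2. Likeness was the distance between log2(RPKM + 0.5) values centred on each gene's mean, and it was 0.248, 0.251, 0.268, 0.316 and 0.322 respectively. Eng, the TGF-beta co-receptor endoglin, was at 3.94, 5.80, 2.18 and 3.24 RPKM (WT1, WT2, KO1, KO2). Rps4y2, named as a ribosomal protein gene, whose reads may be shared with near-identical copies, was at 49.2, 68.4, 22.5 and 25.9. The nearest gene of the group was Elovl1, at a distance of 0.72, rank 483 among the tested genes.

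Of the 3 elongases, Elovl1 was lower in both KO libraries, whereas Elovl5 and Elovl6 both had their higher values in the replicate 2 libraries (coordinates of this and the following genes are mm9). Elovl1, which elongates saturated and monounsaturated very long chains (chromosome 4, 118100698 to 118105521, plus strand), was at 36.0, 40.2, 29.1 and 31.1 RPKM (WT1, WT2, KO1, KO2). Its groups did not overlap, KO being the lower, and the KO/WT ratio was 0.809 and 0.773 for replicates 1 and 2. The log2 difference was -0.33 (SE 0.22). Elovl1 has 3 transcript rows, and the main one alone gave 32.2, 36.8, 26.2 and 27.4 RPKM. The other rows were at 1.75, 1.51, 1.32 and 1.71 RPKM and at 2.01, 1.89, 1.61 and 1.96 RPKM. In each of these low rows KO2 lay above WT2, so the genotypes overlapped.

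Elovl5, which elongates polyunsaturated chains (chromosome 9, 77765172 to 77832326, plus strand), was at 22.7, 36.7, 20.6 and 43.6 RPKM (WT1, WT2, KO1, KO2). Its values went by replicate number, both replicate 2 libraries being above both replicate 1 libraries, and KO2 was the highest of all. The KO/WT ratio was 0.908 for replicate 1 and 1.19 for replicate 2, and the log2 difference was 0.05 (SE 0.48). Elovl6, which takes palmitate to stearate (chromosome 3, 129235304 to 129341411, plus strand), was at 7.57, 11.4, 4.39 and 11.1 RPKM. As for Elovl5, both replicate 2 libraries were above both replicate 1 libraries and KO1 was the lowest of the 4. The KO/WT ratio was 0.579 for replicate 1 and 0.971 for replicate 2. The ratio of Elovl5 to Elovl1 was 0.631 and 0.912 in WT1 and WT2, and 0.709 and 1.40 in KO1 and KO2.

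Of the other enzymes of the cycle, Hsd17b12 (chromosome 2, 93872854 to 93998066, minus strand) had the reverse order by replicate number. It was at 77.1, 42.9, 69.0 and 53.9 RPKM (WT1, WT2, KO1, KO2), so that both replicate 1 libraries were the higher ones. The KO/WT ratio was 0.895 and 1.26, with a log2 difference of 0.08 (SE 0.37). Ptplb (chromosome 16, 35022507 to 35109261, plus strand) was at 1.60, 2.80, 1.36 and 3.02 RPKM, again high in both replicate 2 libraries, with a log2 difference of -0.04 (SE 0.48). The ratio of Hsd17b12 to Tecr, the first and the last reductase of the cycle, was 6.38 in WT1, 2.31 in WT2, 10.5 in KO1 and 6.35 in KO2. This ratio was higher in KO than in WT within each replicate number, but WT1 and KO2 were alike. The 6 genes of the cycle summed to 157.0, 152.6, 131.1 and 151.1 RPKM.

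Scd1 and Scd2 lie in a cluster on chromosome 19 with Scd3 and Scd4. Scd2 spans 44368166 to 44381352 on the plus strand and Scd1 44468940 to 44482199 on the minus strand (mm9), with Scd4 between them. Scd2 was at 156.4, 268.7, 104.9 and 277.8 RPKM (WT1, WT2, KO1, KO2), and Scd1 at 34.4, 38.1, 23.1 and 40.0. For both genes KO1 was the lowest library and KO2 the highest. The KO/WT ratio was 0.671 for Scd2 and 0.673 for Scd1 in replicate 1, and 1.03 and 1.05 in replicate 2. The log2 differences were -0.26 (SE 0.59) and -0.25 (SE 0.34).

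The ratio of Scd2 to Scd1 followed the replicate number and not the genotype. It was 4.55 in WT1 and 4.54 in KO1, and 7.05 in WT2 and 6.94 in KO2. From replicate 1 to replicate 2 it differed 1.55-fold in WT and 1.53-fold in KO cells, whereas KO over WT was 0.997 and 0.985. Scd3 was listed at 0, 0.0163, 0 and 0.0042 RPKM (WT1, WT2, KO1, KO2). Scd4 was at most 0.065 RPKM, and neither gene was tested. A listed 0 need not mean silence, since Gapdh was listed at 0 to 0.298 RPKM in these libraries. Reads that match several Scd genes may have been split between them, since the treatment of such reads is not given in the sources used here.

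**Figure D2:**
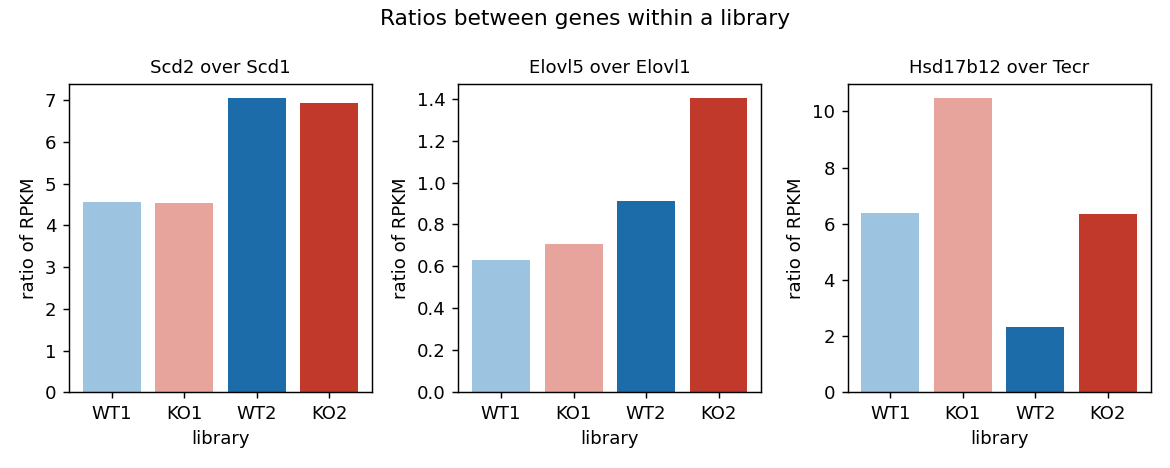
Ratios between the RPKM values of 3 pairs of the genes, with 1 bar for each of the 4 libraries and each axis starting at 0. Scd2 over Scd1 has close values in both genotypes of a replicate number (4.55 and 4.54, then 7.05 and 6.94), whereas Hsd17b12 over Tecr is higher in KO than in WT within each number.

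Fasn and Acaca, which make palmitate, were both lower in KO within each replicate number. Fasn (chromosome 11, 120667272 to 120685861, minus strand) was at 17.9 RPKM in WT1, 14.1 in WT2, 14.4 in KO1 and 11.2 in KO2. Its KO/WT ratio was 0.801 and 0.792, with a log2 difference of -0.32 (SE 0.27). The groups overlapped, because KO1 lay just above WT2. Acaca (chromosome 11, 84008940 to 84215153, plus strand) was at 2.68, 3.56, 1.99 and 3.31 RPKM, with a KO/WT ratio of 0.742 and 0.929 and a log2 difference of -0.22 (SE 0.37). Its groups also overlapped. The ratio of Fasn to Acaca was 6.70, 3.96, 7.23 and 3.37 (WT1, WT2, KO1, KO2).

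As a group, 8 of the 10 genes had a log2 difference below 0, with Elovl5 and Hsd17b12 above 0. Of all genes tested, 54.2% were below 0 and 45.8% above. The difference was below 0 for 10 of 10 genes in replicate 1, where the same held for 61.6% of all genes, and for 5 of 10 in replicate 2, against 47.3%. The 5 that were lower within both numbers were Tecr, Elovl1, Elovl6, Fasn and Acaca, beside 31.4% of all genes, and 0 were higher within both, beside 22.5%. The other 5 were lower for replicate 1 and higher for replicate 2, beside 30.2%. Libraries did not overlap for 2 genes, Tecr and Elovl1, with KO lower, beside 7.32% of all genes, and for none with KO higher, beside 6.1%. The median difference was -0.25 over the 10 genes and -0.02 over all genes tested. It was -0.33 for replicate 1 and 0.0033 for replicate 2. Among 18 cell cycle genes, led by Rrm2, Pcna and Ccna2, 18 had a difference below 0, with medians of -0.74 and -0.21 for replicates 1 and 2. None of them passed in limma (0 with an unadjusted p below 0.05 with genotype alone, 14 with the replicate number as a term). Their part in the values of the 10 genes was not tested.

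**Figure D3:**
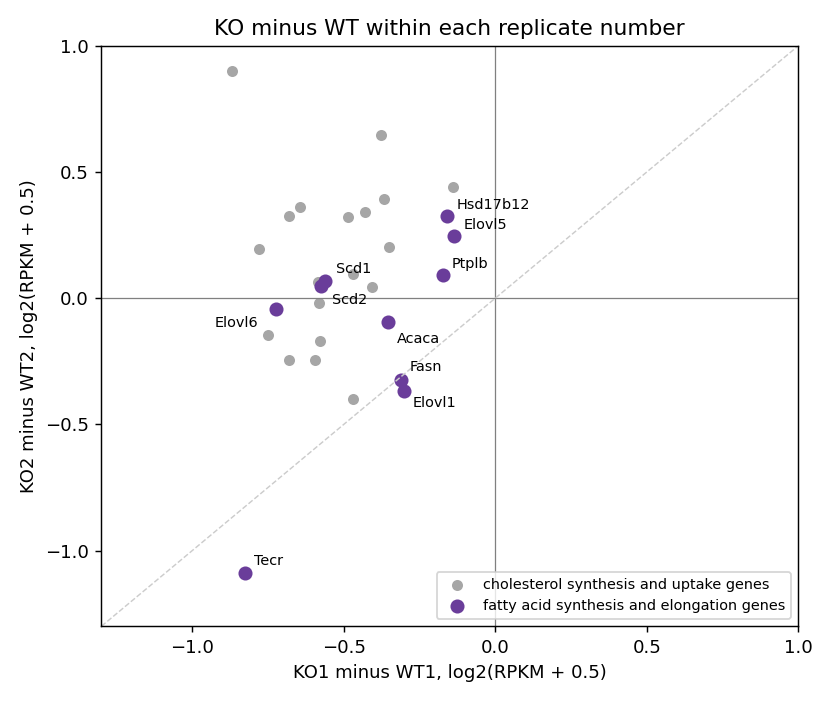
KO minus WT, in log2(RPKM + 0.5), for replicate 1 (x) and replicate 2 (y), for the 10 genes and for the 19 tested genes of cholesterol synthesis and uptake. All 10 genes lie left of 0, Tecr is lowest on the y axis at -1.09, and 5 of the 10 lie above 0 on that axis.

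The difference between the replicate numbers was not the contrast that chose the genes and could be tested. For Tecr the SE (0.17) is that of the fit that called it between KO and WT. Its test here is therefore not independent of its selection. Replicate 2 was higher than replicate 1 for Tecr, Elovl5, Elovl6, Ptplb, Scd2 and Acaca, and lower for Hsd17b12, so that 7 of the 10 genes passed. Both replicate 2 libraries lay above both replicate 1 libraries for 6 of the 10, beside 53.3% of all genes. These were Elovl5, Elovl6, Ptplb, Scd1, Scd2 and Acaca. Both lay below for 2, Hsd17b12 and Fasn, beside 21.2%. Tecr was in neither set, since its KO2 value (8.49 RPKM) lay below WT1 (12.1). In the limma fit with genotype as a term, 35.8% of all genes tested were higher and 11.9% lower in replicate 2. The share of genes of the group that passed, 7 of 10, thus stands beside 47.7% of all genes. Scd2 had the greatest difference of the 10, at 1.09 (SE 0.18, limma adjusted p = 0.000719). Elovl6 followed with 0.90 (SE 0.20, limma adjusted p = 0.00376) and Elovl5 with 0.87 (SE 0.17, limma adjusted p = 0.00212). Ptplb differed by 0.79 (limma adjusted p = 0.00537) and Hsd17b12 by -0.59 (limma adjusted p = 0.0180).

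Tecr, at 0.47 (limma adjusted p = 0.0394), and Acaca, at 0.49 (limma adjusted p = 0.0467), were near the threshold of 0.05. With the genotype term dropped, neither passed (limma adjusted p = 0.513 for Tecr and 0.0662 for Acaca). Scd1 (0.46, limma adjusted p = 0.0664), Fasn (-0.34, limma adjusted p = 0.105) and Elovl1 (0.13, limma adjusted p = 0.556) did not pass. Other scalings changed these calls. Fasn passed after median-ratio scaling (-0.62, limma adjusted p = 0.00757) and quantile normalization (-0.47, limma adjusted p = 0.0293). Scd1 passed after quantile normalization (limma adjusted p = 0.0441), and without WT replicate 1 its difference was 0.74. Tecr and Acaca did not pass after either scaling (limma adjusted p = 0.353 and 0.273 after median-ratio scaling), and Elovl1 turned to -0.16 after median-ratio scaling. Ptplb did not pass after quantile normalization (0.38, limma adjusted p = 0.109). The median of all genes in this contrast was 0.25, and it was 0.0042 after median-ratio scaling and -0.0042 after quantile normalization. Less that median, the values were 0.84 for Scd2, 0.65 for Elovl6, 0.62 for Elovl5, 0.53 for Ptplb, 0.23 for Acaca, 0.22 for Tecr, 0.21 for Scd1, -0.13 for Elovl1, -0.60 for Fasn and -0.85 for Hsd17b12. The split of all calls was 3992 higher and 1331 lower with the values as deposited, 2564 and 2378 after median-ratio scaling, and 2319 and 2309 after quantile normalization. Fits with 1 library left out had the replicate number as the only term and a single library under 1 of the numbers. The genotype difference of a gene therefore enters their values.

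**Figure D4:**
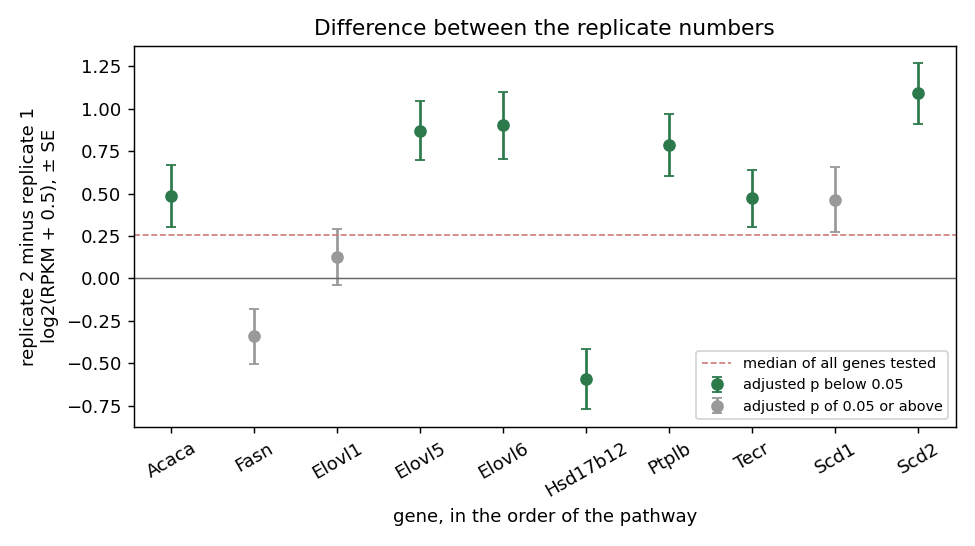
Replicate 2 minus replicate 1 of the 10 genes, in log2(RPKM + 0.5) with ± 1 standard error from limma as bars, green where the adjusted p is below 0.05, and the median of all genes tested (0.25) as a dashed line. Scd2 is highest at 1.09 and Hsd17b12 lowest at -0.59.

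The other genes of lipid synthesis and breakdown were read from 10 lists without any of the 10 genes. Of their 150 genes, 143 were in the files and 120 were tested. None of the 120 passed the KO against WT test in limma with genotype alone, where 0 had an unadjusted p below 0.05. With the replicate number as a term none passed either, and 8 had an unadjusted p below 0.05 (lowest adjusted p = 0.424). Over all genes tested, these fits called 0 genes (0.0%; 41 with an unadjusted p below 0.05) and 75 genes (0.673%; 1015 with an unadjusted p below 0.05). Of the 120, 79 had a difference below 0 and 41 above, with a median of -0.15 for replicate 1 and 0.02 for replicate 2. More genes lay above than below 0 in the sphingolipid list (12 of 18) and among the other elongation genes (3 of 4).

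Among the other elongation genes (4 tested, 1 below 0, median 0.08), Ptplad1, a further dehydratase of the cycle, was at 13.9, 18.2, 14.7 and 18.7 RPKM (WT1, WT2, KO1, KO2). This was 6.21 to 10.8 times the level of Ptplb in the same library. Ptpla, another dehydratase, was at 5.65, 4.33, 5.00 and 2.79, and Elovl4 at 2.63, 3.66, 2.54 and 4.43. Among the other desaturases (5 tested, 4 below 0), Degs1, which makes ceramide from dihydroceramide, was at 152.3, 77.4, 130.4 and 88.9. Fads1, a desaturase of polyunsaturated chains, was at 37.7, 68.3, 32.5 and 69.1, and Fads3 at 32.0, 16.4, 29.3 and 20.4. All 3 desaturases followed the replicate number, Fads1 in one direction and Degs1 and Fads3 in the other.

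The 6 other tested genes around cytosolic fatty acid synthesis were all below 0 without passing, with a median of -0.24. They include Mlycd, named here after its values were seen, which breaks malonyl-CoA down. Slc25a1, the mitochondrial citrate carrier, was at 25.8, 41.3, 22.9 and 30.2 RPKM (WT1, WT2, KO1, KO2). Acly, which splits citrate to acetyl-CoA, was at 26.4, 22.3, 21.4 and 22.4, and malic enzyme Me1 at 25.4, 17.0, 21.6 and 18.6. The 6 genes of mitochondrial fatty acid synthesis, led by Mcat, Mecr and Cbr4, were also all below 0, with a median of -0.10. Mecr, the enoyl reductase of that pathway and so the counterpart of Tecr there, was at 3.91, 3.69, 3.34 and 2.96.

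Genes of cholesterol synthesis and uptake, which SREBPs also drive, were below 0 in 19 of 19 for replicate 1 and in 6 of 19 for replicate 2, with medians of -0.58 and 0.20. Sc4mol, a sterol C4 methyl oxidase, was at 79.0, 49.7, 49.1 and 62.4 RPKM (WT1, WT2, KO1, KO2). Cyp51, the lanosterol demethylase, was at 40.2, 34.3, 28.5 and 43.0. Insig1, a sterol-responsive brake on SREBP processing, was at 23.0, 33.4, 14.2 and 40.0 RPKM, with KO1 lowest and KO2 highest as in Scd1 and Scd2. Of the other regulators, Srebf2 was at 20.6, 29.2, 17.3 and 25.7, and Mbtps1, the protease that cleaves SREBPs, at 11.4, 19.8, 13.4 and 17.3. Srebf1, added after its values were seen, was at 4.78, 8.73, 4.23 and 6.84.

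The lists around the use of fatty acids held no gene that passed either. In the sphingolipid list, with genes of synthesis and breakdown (18 tested, median 0.06), Sgpl1 was at 38.2, 42.7, 40.9 and 43.7 RPKM (WT1, WT2, KO1, KO2). Ugcg was at 42.9, 34.8, 43.9 and 39.9, and the ceramide synthase Lass2, which uses very long chains, at 35.6, 34.3, 32.6 and 32.5. Glycerolipid genes (13 tested, 9 below 0) were led by Agpat1, Agpat6 and Agpat4, and the KO minus WT of Agpat1 was -0.38. Activation and transport genes (12 tested, 9 below 0) were led by Acbd3, Dbi and Fabp5. Fatty acid oxidation genes (21 tested, 13 below 0, median -0.06) included Hadh and Cpt1a.

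**Figure D5:**
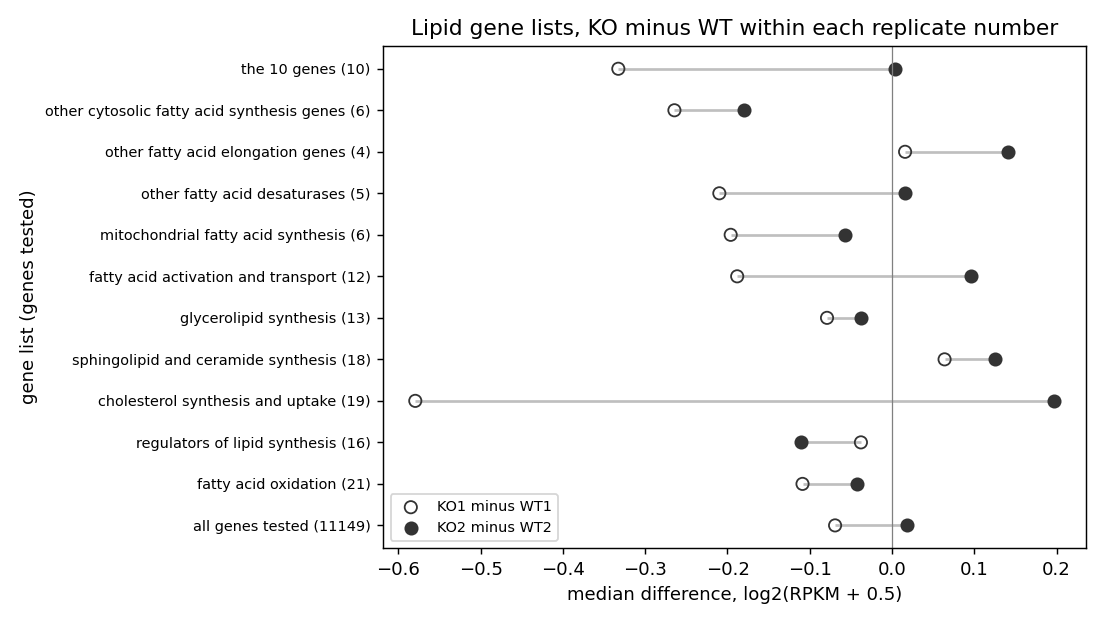
Median KO minus WT, in log2(RPKM + 0.5), of the 10 genes, each lipid list and all genes tested, for replicate 1 and replicate 2 separately. The cholesterol list has medians of -0.58 and 0.20, and the 10 genes have -0.33 and 0.0033.

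Marker genes of other cell types moved with genotype as well as with the replicate number. Of the blood and macrophage markers 4 of 11 tested fell in KO with the replicate number as a term (C1qc, Cd14, Fcer1g and Laptm5, limma adjusted p from 0.00782 to 0.0365). Of the epithelial markers 2 of 4 tested fell (Krt19 and Krt7, limma adjusted p = 0.00188 and 0.0228). Krt18 and Cldn4 did not pass, and Epcam, Cdh1 and Cldn7 were too low to be tested. With genotype alone 0 of the blood, macrophage and epithelial markers passed. With the replicate number as a term, 1 gene of all the lists passed at a pseudocount of 0.1, and 0 did without the filter or with the highest row of each gene. Krt19 was at 13.4, 9.78, 3.56 and 2.70 RPKM (WT1, WT2, KO1, KO2). In bulk RNA, fewer cells of a type and less RNA in each cell cannot be told apart, and the part of these cells in the values of Tecr and the other 9 genes was not tested.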

How the data were processed

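RNA was measured in 2 WT and 2 KO libraries of mouse embryonic fibroblasts. RNA was DNase-treated, depleted with RiboMinus, selected on poly-T beads and, per the labels' protocols, sequenced on a Genome Analyzer IIx. The authors deposited RPKM per RefSeq transcript; build mm9 and Partek are named in the submitters' processing notes and Cufflinks in the deposited readme. The aligner is not given in the sources used here, nor are any versions or the placing of multi-mapping reads.

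Replicate 1 libraries hold 26886 rows and the replicate 2 libraries 21136. Rows in all 4 libraries (chromosomes 1 to 19) were summed per symbol and chromosome. Of the rows, 95.3% matched RefSeq by accession, and all 10 genes did. The 11149 genes that reached 0.5 RPKM in 2 or more libraries, which included all 10, were tested on log2(RPKM + 0.5) with limma 3.58.1 in R 4.3.3 (eBayes with trend and robust variance; two-sided; Benjamini-Hochberg over all genes; threshold 0.05). Genotype was the only term, and the replicate number was added as an alternative (residual degrees of freedom 2 and 1). Replicate 2 against replicate 1 came from the fit with both terms. Its alternatives with the genotype term dropped or with 1 library left out had the replicate number as the only term. The scripts were tested on simulated data. Depth was read from steps of 1 read in olfactory receptor loci: 85.7% to 90.9% of the loci used came out whole within 0.02 of a read.

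The genes and lists were chosen with earlier results of these data known. Named genes were the 10, the 3 with the highest mean RPKM of each other list or those that passed, the 5 nearest to Tecr in pattern, the tested neighbours of Tecr, the Scd cluster and Hells; 2 genes that this rule names are not reported here. Alternatives were other scalings, pseudocounts, no filter, the highest row of a gene, the replicate block and leaving out each library.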

Additional observations from a re-analysis of the deposited data

How the results depend on the processing

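The replicate number decided the count of genes called between KO and WT. It was 0 with genotype alone, also under every scaling, pseudocount, filter and left-out library tried (0 to 0), and 75 with the replicate block. With the block it was 105 after median-ratio scaling, 187 after quantile normalization, 59 with a pseudocount of 1, 37 with a pseudocount of 0.1, 3 with the highest row of each gene and 0 without the filter. Tecr was among the genes called with the block under both scalings and a pseudocount of 1, and not with a pseudocount of 0.1, the highest row or no filter. The cause was not tested. Of the lipid and marker lists, 0 genes were called with genotype alone, and with the block 6, 6 after median-ratio scaling, 12 after quantile normalization, 8 with a pseudocount of 1 and 1 with a pseudocount of 0.1. As to pairing, the deviations of same-numbered libraries from their group means had a correlation of 0.875 across genes, but with 2 numbers and no label on what they mark, this was not taken as pairing.

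Of the 10 genes, 8 had a KO minus WT difference below 0, 5 within replicate 2 only and 4 to 9 with 1 library left out (4 without KO replicate 1). All 10 kept their sign under the scalings, pseudocounts and other settings that used all 4 libraries. For Tecr these gave -0.99 to -0.92, and -1.26 to -0.66 with 1 library left out. In replicate 2 against replicate 1, all genes called were 5323, and 2088 to 4509 with 1 library left out (2088 without WT replicate 2, 2705 without KO replicate 2). Of the 10 genes, 7 passed, 4 without the filter and 1 to 6 with 1 library left out. Elovl5 passed in all 11 alternatives, Scd2 in 9, Elovl6, Hsd17b12 and Ptplb in 8 each, and Tecr, Acaca, Scd1 and Fasn in 2 each. The sign turned for Elovl1 after median-ratio scaling (-0.16). Fits with 1 library left out had no genotype term, so the genotype difference of a gene enters their values and calls. They gave -0.0578 to 0.31 for Elovl1 (-0.0252 without KO replicate 1). For Tecr they gave -0.072 (without WT replicate 2) to 1.02. Within a genotype, replicate 2 over replicate 1 was 1.54 in WT and 1.29 in KO for Tecr. For Elovl1 it was 1.12 and 1.07. In their lowest library, Ptplb had 166 and Acaca 243 reads per kilobase of transcript, the fewest per length of the 10 genes.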

Other observations

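Fatty acid oxidation genes, the pathway opposite to the one described, were called in 1 direction by replicate number with the values as deposited. By limma with genotype as a term, 13 of 21 tested were higher in replicate 2 and 0 lower, beside 35.8% and 11.9% of all genes tested. The median difference was 0.55 for this list and 0.25 for all genes tested. No count for this list was made after the other scalings, which evened out the calls over all genes. Cpt1a, which brings long chains into mitochondria, was at 7.05, 17.0, 6.24 and 17.1 RPKM (WT1, WT2, KO1, KO2; difference 1.30, limma adjusted p = 0.000126). Hadh, a dehydrogenase of beta-oxidation, was higher in replicate 2 by 1.03 (limma adjusted p = 0.000765). Lpl, a lipase that frees fatty acids from lipoproteins, is from the adipocyte markers and not from this list. It was at 2.10, 13.7, 3.48 and 19.5 (difference 2.39, limma adjusted p = 2.37e-06).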
